A study of Homo sapiens with 20 samples.

Results

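The genes described here are the 43 subunits, regulators and assembly factors of the proteasome whose symbols begin with PSM. They were chosen by symbol and taken from 2 gene count tables of 57773 rows each. A member symbol stood on 45 rows. The extra rows of PSMA1 and PSMA2 were readthrough transcripts that held 2 counts in all, and they were not used. All 43 members passed the filter on low counts in both comparisons, among 14532 genes tested after EHMT1 silencing and 14105 tested after EHMT1 induction.

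The study asked what the histone methyltransferase EHMT1 does in LNCaP cells, an androgen-responsive line from a human prostate adenocarcinoma. For silencing, LNCaP cells were transfected with pooled siRNAs at 20 nM for 2 days, either a non-target control (siNTC, n = 2) or a pool against EHMT1 (siEHMT1, n = 2). For induction, 4 stable LNCaP lines carried a V5-tagged EHMT1 open reading frame under a tetracycline-inducible promoter, as wild type (WT) or with lysine-to-arginine changes (K450R, K451R and K450RK451R), and each was left without inducer (Veh) or given 0.25 µg/mL doxycycline for 2 days (Dox). The lines were made by lentiviral infection and puromycin selection, kept their own EHMT1 gene, and each stood for 1 construct. No cells without a construct were given doxycycline among these samples. Effects of the drug and of the induced EHMT1 thus cannot be told apart, and induction here means Dox against Veh. The comparison over the 4 lines pools 4 different EHMT1 proteins.

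The proteasome is the large protease that degrades proteins marked with ubiquitin chains. Its 20S core is a barrel of alpha rings, which gate the entry, around beta rings, of which PSMB5, PSMB6 and PSMB7 carry the cutting sites. A 19S cap sits on the barrel, with a base of ATPases (PSMC genes) that unfold and feed the substrate and a lid that removes the ubiquitin. Other caps (PSME genes), an inhibitor (PSMF1) and dedicated chaperones (PSMG genes, PSMD5, PSMD9 and PSMD10) complete the set. Cells adjust the whole set together through the transcription factor NFE2L1 (NRF1), which binds antioxidant response elements in the promoters.

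The promoters of 4 members whose unadjusted p was under 0.05 in one of the comparisons are shown first. Each had an upstream stretch that was clear of annotated exons, and they do not stand for all members with such a p. Each line gives, from GRCh37 and in the gene's own direction, the longest stretch without an annotated exon in the 250 bases upstream of the start of the canonical transcript. For PSMD12 and PSME1, the bases next to that start lay in an exon and are not shown, with an ETS site of PSMD12 among them. Capitals mark an antioxidant response element core (TGANNNNGC), a CCAAT box (CCAAT) or an ETS site (GGAAGT), on either strand.
PSMA3, chr14:58711311-58711560, + strand: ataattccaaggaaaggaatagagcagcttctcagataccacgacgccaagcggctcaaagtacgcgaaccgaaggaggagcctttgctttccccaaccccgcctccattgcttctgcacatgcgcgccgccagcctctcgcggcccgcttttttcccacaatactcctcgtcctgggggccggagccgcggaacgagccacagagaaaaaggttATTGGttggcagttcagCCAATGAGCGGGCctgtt
PSMB5, chr14:23504110-23504320, - strand: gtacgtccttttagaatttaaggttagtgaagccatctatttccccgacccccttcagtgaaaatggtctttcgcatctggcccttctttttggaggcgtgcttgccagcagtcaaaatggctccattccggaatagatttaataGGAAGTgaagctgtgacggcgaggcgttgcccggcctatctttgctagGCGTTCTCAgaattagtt
PSMD12, chr17:65362722-65362943, - strand: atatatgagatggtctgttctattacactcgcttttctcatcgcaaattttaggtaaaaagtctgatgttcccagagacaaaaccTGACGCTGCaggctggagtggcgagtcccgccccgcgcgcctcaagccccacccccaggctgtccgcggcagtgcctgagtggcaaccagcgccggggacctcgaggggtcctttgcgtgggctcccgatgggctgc
PSME1, chr14:24605153-24605371, + strand: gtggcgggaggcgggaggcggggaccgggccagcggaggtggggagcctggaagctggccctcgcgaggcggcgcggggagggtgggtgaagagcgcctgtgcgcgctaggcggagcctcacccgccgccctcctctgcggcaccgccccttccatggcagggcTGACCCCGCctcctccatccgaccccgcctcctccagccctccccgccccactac
In PSMA3, the downstream CCAAT box overlapped the response element core by its last base. The same stretch upstream of PSME2 lay inside an annotated exon and is not shown. PSMC1, PSMC6, PSMD1 and PSMF1 had an edgeR unadjusted p under 0.05 after induction and are not shown either. Their 250 upstream bases held no TGANNNNGC, while those of PSME2 and of all 4 members shown did. Over the 250 bases upstream of every member, TGANNNNGC was present in 22 of 43 (51.2%) against 35.1% of 19122 promoters of the same length, and GGAAGT in 19 (44.2%) against 20.9%. CCAAT was present in 17 members (39.5%) against 34.3%, and TATAAA in 4 (9.30%) against 9.02%. Both strands were searched, and a match describes letters only. The members lay on many chromosomes, with 7 on chromosome 14 and 7 on chromosome 17, and PSME1 and PSME2 were neighbours on chromosome 14 with 4394 bases between them.

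A second sequence bears on PSMC1, an ATPase of the 19S base (ENSG00000100764, chr14:90722871-90741773, + strand, GRCh37). Its coding sequence also occurs in PSMC1P1, a processed pseudogene at chr3:68684856-68686175 (+ strand), in exact runs of up to 884 bases. The first 120 coding bases, identical in both genes, are printed with the first 51, the length of 1 read, in capitals.
PSMC1 and PSMC1P1, chr3:68684856-68684975, + strand: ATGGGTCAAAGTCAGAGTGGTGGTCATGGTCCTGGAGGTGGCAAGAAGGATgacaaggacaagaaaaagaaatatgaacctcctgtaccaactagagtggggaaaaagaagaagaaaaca
The letters of a read from such a stretch do not tell which of these genes it came from. Of all 51-base words in the PSMC1 transcript, 37.7% occurred elsewhere in the genome, and of those in its coding sequence 98.5%. In addition, 76.1% of the PSMC1 exon bases overlapped NRDE2 on the opposite strand. The PSMC1 values below are therefore uncertain.

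The siRNA samples held 5593400 to 12438006 counted reads. In the stable lines, the columns numbered 1 and 2 of every condition differed by no more than counting noise (chi-square per degree of freedom 0.995 to 1.02), so they were summed and counted as 1 sample of 8436791 to 12407739 reads, and the 4 lines served as replicates of the Dox effect. The siNTC and siEHMT1 columns differed by more (61.6 and 13.4, or 6.58 and 6.17 without 2 rRNA-like pseudogenes). The labels do not say that samples came from separate cultures, so p-values measure only the spread between these samples. Levels are counts scaled to the library size, corrected by TMM within each table (CPM). Because the tables were normalized separately, no test was made between siRNA samples and lines. EHMT1 itself stood at 87.8 and 83.6 CPM in siNTC and at 29.2 and 30.7 CPM in siEHMT1. In the lines, it lay at 71.7 to 88.9 CPM with Veh and at 663 to 842 CPM with Dox. The 10 luminal prostate markers checked were detected throughout, at a summed 6501 to 6813 CPM in the siRNA samples and 11847 to 13111 CPM in the lines. The 7 markers of basal, blood and stromal cells summed to 17.4 to 18.5 and 32.1 to 43.04 CPM, with PTPRC, TP63 and KRT5 at 0 throughout. Most of the sum in the lines came from the fibroblast marker COL1A1, at a mean of 36.8 CPM with Veh and 33.0 CPM with Dox. KRT14, CD68 and COL3A1 were also above 0 there, at far lower levels. With Dox, the nuclear RNAs MALAT1 and NEAT1 were lower by log2 fold changes of -0.92 and -1.55 (edgeR, both called). After silencing they were higher, by 0.49 and 0.56 (edgeR, neither called). CTD-2328D6.1, an rRNA-like pseudogene, was higher with Dox (log2 fold change 0.95, edgeR adjusted p = 0.0113). It held 1.63% of the reads in siNTC sample 2, the sample with the fewest reads, and 0.177% in sample 1. The part of these shifts in the values below was not tested.

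In uninduced cells, the members spanned a wide range of levels per length. In CPM per kilobase of the canonical transcript, the mean over the 4 Veh samples was highest for PSMB4, a structural beta subunit, at 316 (range 309 to 323). PSMD8 of the lid followed at 264, PSMA7 of the alpha ring at 204, and the beta subunits PSMB1 and PSMB3 at 191 and 171. The beta ring thus held 3 of the 5 highest levels. At the other end, PSMC1 stood at 0.338 CPM per kilobase (range 0.162 to 0.498), far under the next lowest members, the assembly chaperones PSMD5 at 4.04 and PSMD9 at 4.14. PSMA2 of the alpha ring (4.41) and PSMD12 of the lid (4.45) came next, and the ranges over lines of these 4 genes overlapped. By group, the median level per kilobase was 132 for the beta ring, 56.8 for the non-ATPase subunits of the base, 49.7 for the lid, 31.8 for the ATPases, 22.2 for the alpha ring, 15.7 for the activators and inhibitor, 14.0 for the 20S chaperones and 4.14 for the 19S chaperones. The median of all 43 was 36.9. The order was alike in siNTC and Veh samples (Spearman rho 0.949 across the 43 genes) and when length was taken as the union of all exons (0.902). These genes share libraries, and the rho values are descriptions. The catalytic subunits PSMB6, PSMB5 and PSMB7 stood at 132, 95.8 and 93.3 CPM per kilobase. The low end depended on the length used. Per kilobase of the union of exons, PSMC1 was again lowest at 0.242 CPM, but PSMG4 (0.712) and PSMA2 (0.755) came next. PSMD9 and PSMD5 stood at 1.29 and 3.10 by that length.

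**Figure D1:**
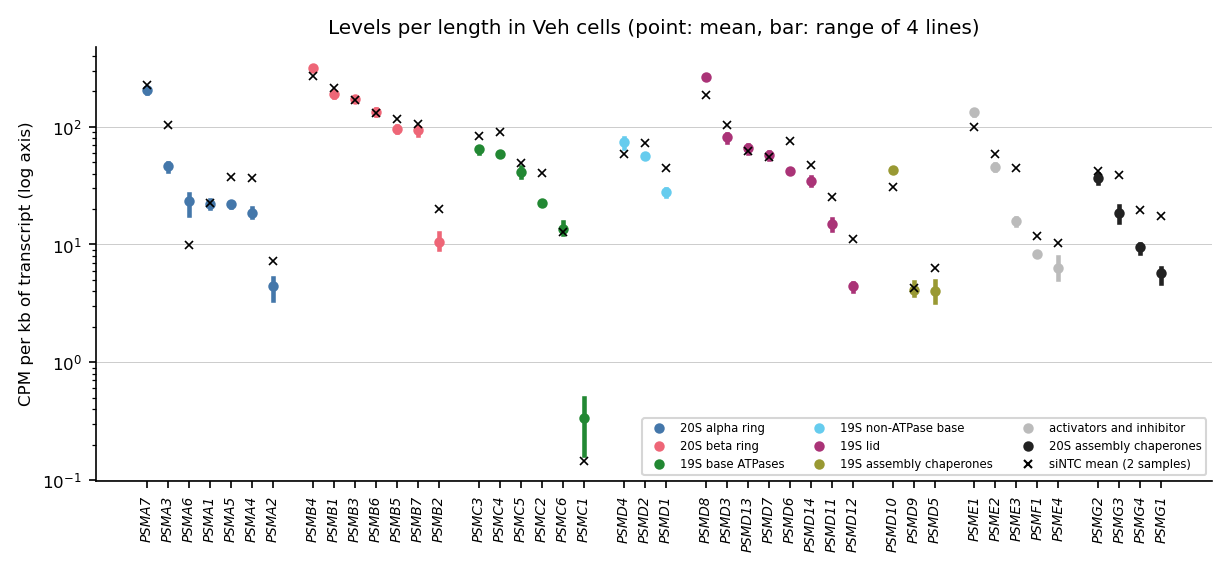
Level of each proteasome gene in uninduced cells, as CPM per kilobase of transcript on a log axis, with a point for the mean of the 4 Veh samples, a bar for their range and a cross for the siNTC mean (2 samples), colored by group. PSMB4 stood highest at 316 and PSMC1 lowest at 0.338.

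PSMC1 was low in every library, while its pseudogene collected reads. The counts on PSMC1 were 5 and 4 in siNTC and 12 and 13 in siEHMT1. In the lines they went from 20 with Veh to 6 with Dox in WT, from 11 to 9 in K450R and from 18 to 13 in K451R, and stood at 7 in both K450RK451R samples. On PSMC1P1, 2546 reads were counted over the 12 libraries against 125 on PSMC1, a ratio of 20.4, at 18.7 to 21.1 CPM in the siRNA samples and 18.6 to 25.8 CPM in the lines. Every library held more reads on the pseudogene than on the gene. Other members shared fewer words with copies, namely PSMC6 (30.2%), PSMA6 (26.9%), PSMD4 (22.6%), PSME2 (18.98%) and PSMD2 (10.9%), while 21 members shared none. The level per kilobase and the share of copied coding words had a Spearman rho of -0.10 across the 43 members, and the level and the share of all copied words one of -0.33. The 6 members with over 10% of their coding words copied had a median level of 34.2 CPM per kilobase against 36.9 in the other 37.

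**Figure D2:**
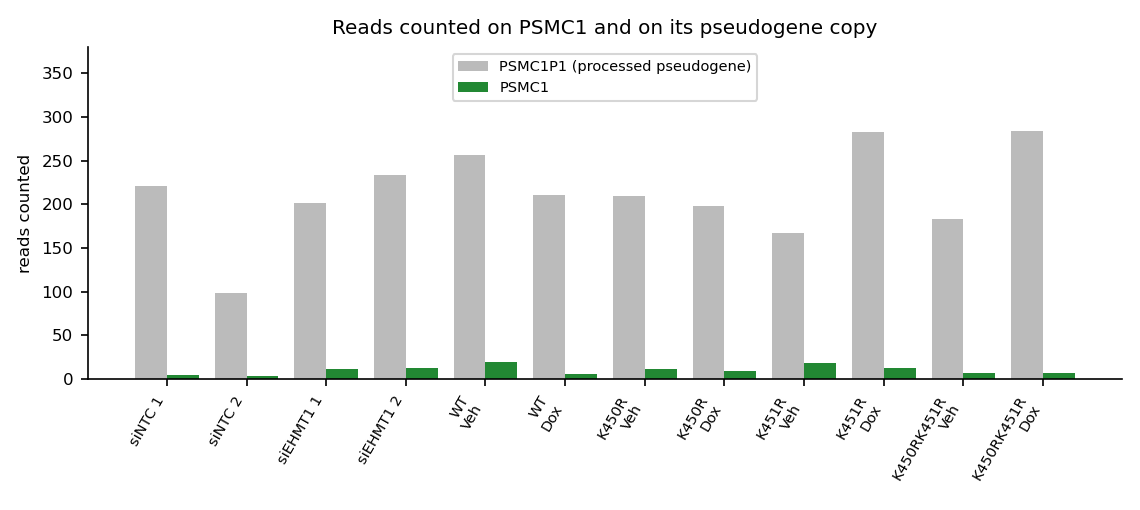
Reads counted on PSMC1 (green) and on its processed pseudogene PSMC1P1 (gray) in the 4 siRNA samples and the 8 summed stable-line samples. The pseudogene bar is the taller one in all 12 libraries, with 2546 reads against 125 in all.

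After EHMT1 silencing, no proteasome gene passed edgeR's quasi-likelihood test. Of the 43 members, 0 passed an adjusted p of 0.05 (Benjamini-Hochberg over all genes tested), against 0.131% of the 14532 genes (0.0619% higher and 0.0688% lower). DESeq2 and limma-voom also called 0. At an unadjusted p under 0.05, edgeR gave 3 members (9.58% of all genes), DESeq2 1 and limma-voom 2. The estimates lay on both sides of 0, with 23 members higher and 20 lower, and the median log2 fold change was 0.012, against -0.0021 and 50.4% lower over all genes. The summed level of the 43 members was 4328 and 4231 CPM in siNTC and 4367 and 4190 CPM in siEHMT1, so the groups overlapped. Both siEHMT1 samples lay above both siNTC samples for 6 members (19.9% of all genes) and below them for 8 (19.8%), and the groups overlapped for 29. In these bulk samples, a change in RNA per cell cannot be told apart from a change in the share of cells that express a gene.

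The precision of the siRNA comparison set bounds for most members. The 95% interval of the fold change lay within 1.5-fold in either direction for 38 members and within 2-fold for 42, where 59.4% and 80.7% of all genes reached this. The narrower bound of 1.2-fold held for 14 members (9% of all genes). Neither these shares of all genes nor those given below were matched for level. The member outside 2-fold was PSMC1, at 0.47 and 0.79 CPM in siNTC and 1.25 and 1.04 CPM in siEHMT1, with a log2 fold change of 0.95 (SE 0.63, edgeR adjusted p = 0.663). With the reads of PSMC1P1 added, its log2 fold change was 0.015 (SE 0.15, edgeR adjusted p = 0.988).

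The 20S core showed levels that overlapped between siNTC and siEHMT1 for most genes. PSMB5, the chymotrypsin-like subunit and main target of bortezomib, stood at 127 and 116 CPM in siNTC and at 125 and 108 CPM in siEHMT1 (log2 fold change -0.061, SE 0.099, edgeR adjusted p = 0.894). PSMB6, the caspase-like subunit, stood at 110.8 and 104.5 CPM in siNTC and at 110.0 and 101.6 CPM in siEHMT1 (log2 fold change -0.026). PSMB7, the trypsin-like subunit, stood at 101 and 105 CPM in siNTC and at 110.5 and 98.5 CPM in siEHMT1 (log2 fold change 0.019). The groups overlapped for each of the catalytic genes. Among the structural beta subunits, PSMB3 had the highest estimate, 0.14, from 136 and 122 CPM in siNTC to 149 and 136 CPM in siEHMT1, and PSMB1 the lowest, -0.081, from 180.3 and 196 CPM to 182 and 173 CPM. In the alpha ring, PSMA7 went from 234 and 204 CPM to 268 and 231 CPM (log2 fold change 0.19), and PSMA1 from 20.5 and 33.4 CPM to 24.2 and 18.4 CPM (log2 fold change -0.33). Both genes overlapped between groups. PSMA3, an alpha subunit, was at 95.2 and 102.8 CPM in siNTC and at 81.0 and 86.1 CPM in siEHMT1, without overlap (log2 fold change -0.24, SE 0.097, edgeR adjusted p = 0.421).

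In the 19S cap, the largest estimate outside PSMC1 belonged to PSMD12, a scaffold subunit of the lid. It stood at 46.6 and 51.2 CPM in siNTC and at 40.0 and 35.1 CPM in siEHMT1, so both silenced samples were below both controls. The log2 fold change was -0.38 (SE 0.12), and the edgeR adjusted p of 0.266 did not pass the threshold. PSMD7, the lid partner of the deubiquitinase PSMD14, had the highest lid estimate, 0.14, from 98.8 and 83.2 CPM to 103 and 97.01 CPM, with overlap. In the base, PSMD4, a ubiquitin receptor, went from 77.5 and 76.5 CPM to 86.3 and 83.8 CPM (log2 fold change 0.14), without overlap. PSMD1, a large scaffold subunit of the base, went from 149 and 145 CPM to 134 and 142 CPM (-0.092), and the ATPase PSMC5 from 63.8 and 68.2 CPM to 63.2 and 58.4 CPM (-0.12). Both silenced values lay below both controls for PSMD1 and for PSMC5. The 19S chaperones PSMD9, from 13.0 and 10.3 CPM to 15.8 and 10.5 CPM (0.15), and PSMD5, from 18.9 and 23.7 CPM to 19.8 and 17.6 CPM (-0.18), overlapped between groups.

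Among regulators, PSME2 had the highest estimate after silencing. PSME2 encodes one of the partners of the interferon-inducible PA28 cap and stood at 45.9 and 47.6 CPM in siNTC and at 61.7 and 49.9 CPM in siEHMT1 (log2 fold change 0.25, SE 0.12, edgeR adjusted p = 0.509). Both silenced samples were above both controls, the first by more. PSMF1, the proteasome inhibitor PI31, stood at 100.1 and 93.5 CPM in siNTC and at 95.4 and 83.3 CPM in siEHMT1 (log2 fold change -0.12), with overlap. Of the 20S chaperones, PSMG4 went from 14.9 and 15.6 CPM to 16.7 and 19.002 CPM (0.23) and PSMG1 from 31.1 and 30.2 CPM to 30.2 and 24.4 CPM (-0.17). Both silenced values lay above both controls for PSMG4 and below both for PSMG1, there by a small margin. By group, the median log2 fold change ran from -0.10 in the 20S chaperones to 0.066 in the activators and inhibitor.

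**Figure D3:**
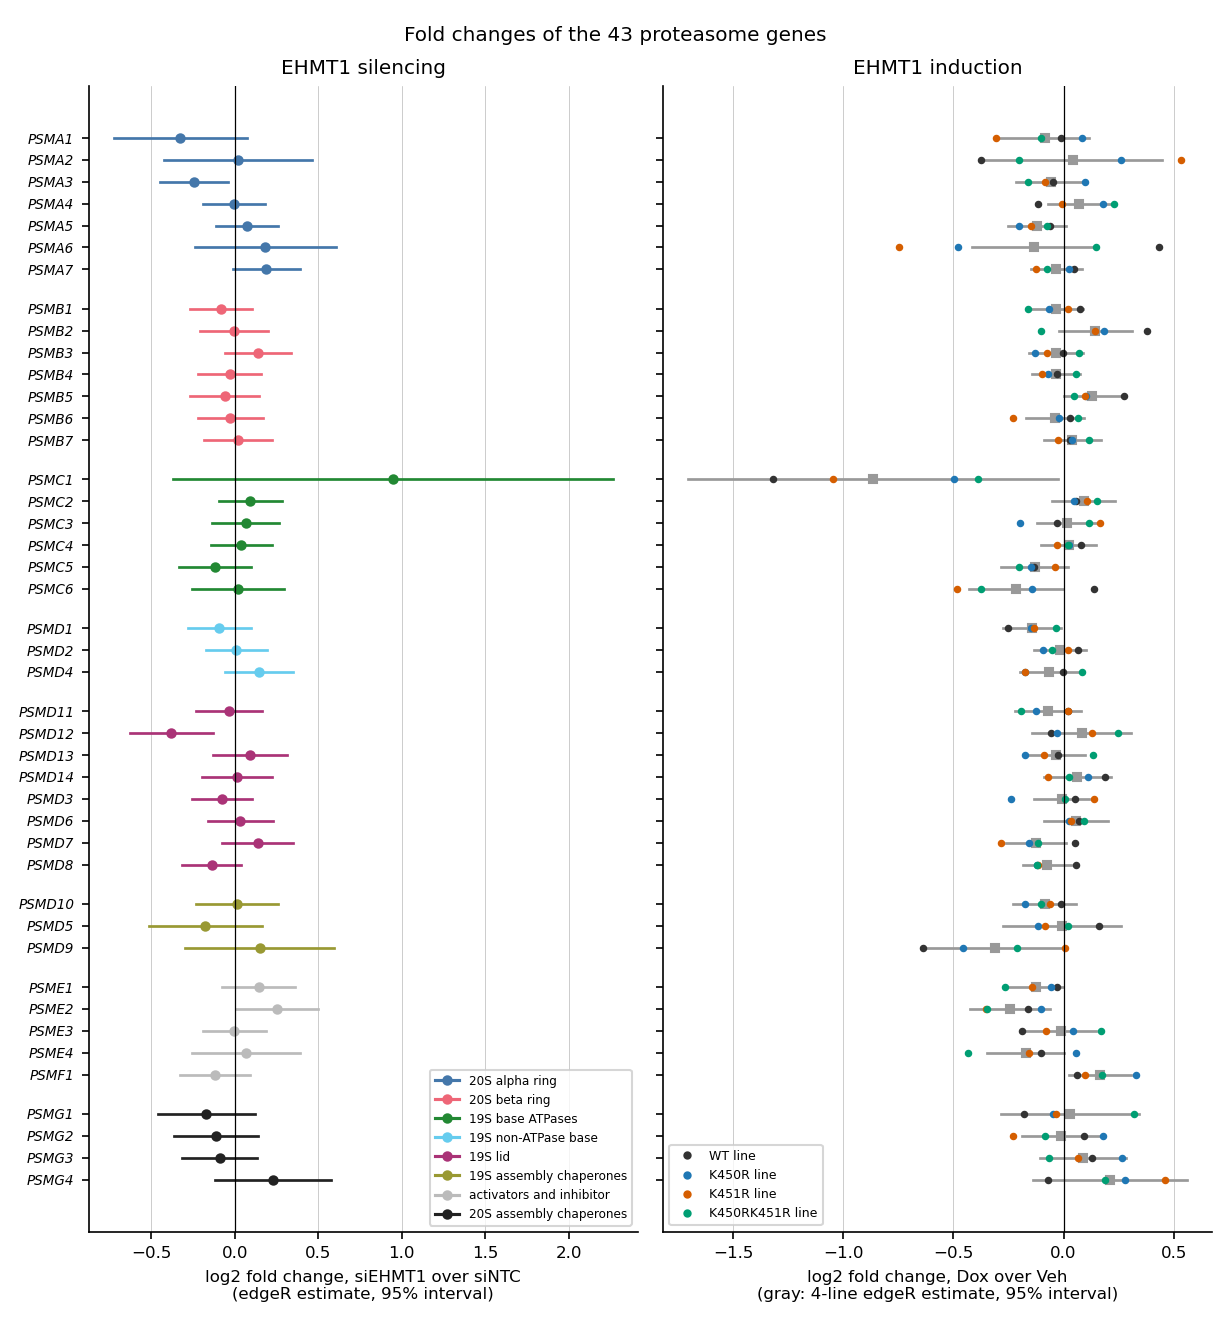
Log2 fold changes of the 43 proteasome genes, after EHMT1 silencing at left (edgeR estimate and 95% interval, colored by group) and after EHMT1 induction at right (gray square and bar for the estimate over the 4 lines and its 95% interval, colored points for each line). Most intervals cross 0, and PSMC1 has the widest, with estimates of 0.95 and -0.86.

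Dox against Veh over the 4 lines likewise gave no proteasome gene past the threshold. In the edgeR fit with line as a block, 0 of 43 members passed an adjusted p of 0.05, against 2.1% of the 14105 genes (296 genes, 0.603% higher and 1.5% lower). DESeq2 and limma-voom also called 0. At an unadjusted p under 0.05, edgeR gave 7 members (14.4% of all genes), DESeq2 1 and limma-voom 6. More members were lower (28) than higher (15), with a median log2 fold change of -0.033, against 0.0050 and 48.8% lower over all genes. The 95% interval lay within 1.2-fold for 26 members (29.7% of all genes), within 1.5-fold for 41 (70.9%) and within 2-fold for 42 (90.5%). Across all 4 lines, 7 members (16.3%) were lower with Dox in each line, against 10.1% of all genes, and 4 members (9.3%) were higher in each, against 10.7%. The former were PSMA5, PSMC1, PSMC5, PSMD1, PSMD10, PSME1 and PSME2, and the latter PSMB5, PSMC2, PSMD6 and PSMF1.

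The summed level of the 43 members moved little with Dox. It went from 3567 to 3624 in WT, 3610 to 3469 in K450R, 3556 to 3405 in K451R and 3537 to 3479 CPM in K450RK451R. The Veh samples averaged 3568 CPM (SD 30.7, n = 4) and the Dox samples 3494 CPM (SD 92.6, n = 4), and the groups overlapped. WT was the line in which the sum was higher with Dox. For the genes that follow, the level with Veh is likewise given first and the level with Dox second.

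**Figure D4:**
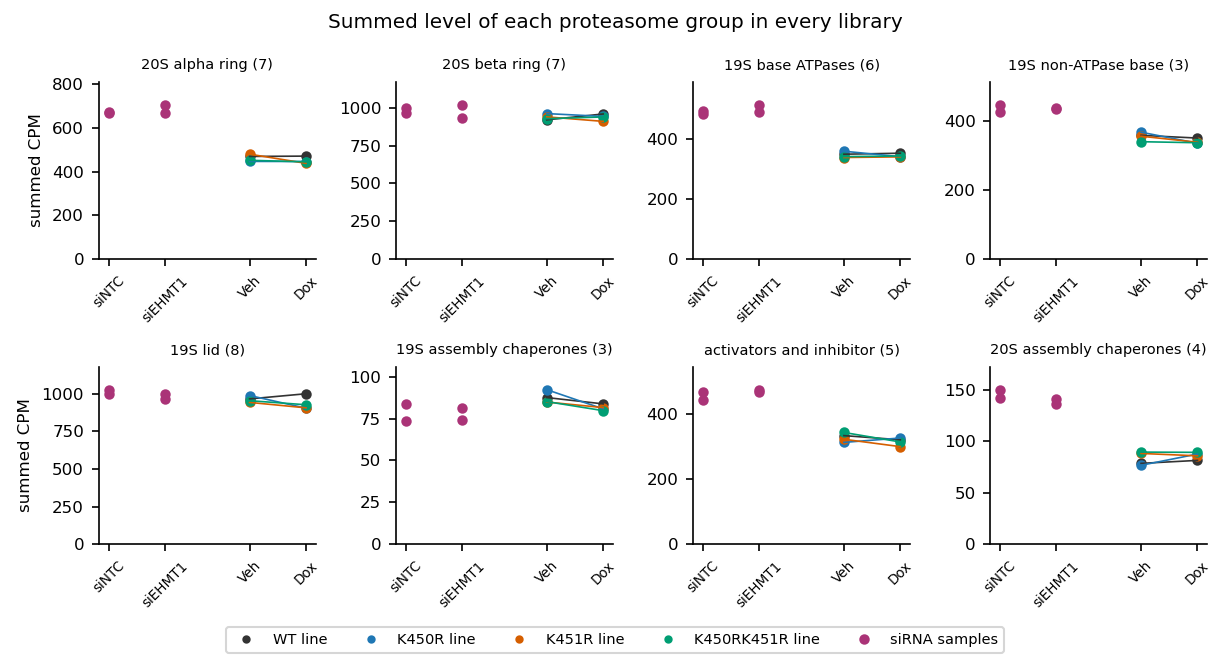
Summed CPM of each proteasome group in every library, with siRNA samples at left and the stable lines at right, joined by a line from Veh to Dox. The beta ring, for example, summed to between 911 and 1021 CPM over all 12 libraries. Levels of siRNA samples and lines were scaled separately.

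PSME2 had the smallest p among the members in this comparison. It went from 33.9 to 30.3 in WT, 35.0 to 32.6 in K450R, 38.4 to 30.1 in K451R and 35.6 to 28.0 CPM in K450RK451R. Every Dox sample was below every Veh sample. The log2 fold change was -0.24 (SE 0.088, edgeR adjusted p = 0.162). With the reads of its pseudogene copies PSME2P1 and PSME2P2 added, it was -0.28 (SE 0.082, edgeR adjusted p = 0.0768), still short of the threshold. Its neighbour and partner in the PA28 cap, PSME1, went from 133 to 130.4 in WT, 122 to 118 in K450R, 130.1 to 118 in K451R and 131 to 109 CPM in K450RK451R (log2 fold change -0.13, SE 0.061, edgeR adjusted p = 0.345). PSME1 was lower with Dox within each line, and the groups overlapped. After silencing, PSME1 was at 105 and 87.2 CPM in siNTC and at 112 and 99.96 CPM in siEHMT1, with overlap.

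PSMF1, the inhibitor, had the opposite sign to the PA28 genes with Dox. It went from 69.3 to 72.4 in WT, 69.3 to 87.1 in K450R, 64.7 to 69.1 in K451R and 70.1 to 79.2 CPM in K450RK451R (log2 fold change 0.17, SE 0.069, edgeR adjusted p = 0.244). It was higher within each line, most in K450R, while the groups overlapped at the lowest Dox value. PSME4, the PA200 cap known from chromatin and spermatogenesis, went from 47.4 to 44.2 in WT, 40.7 to 42.35 in K450R, 36.9 to 33.1 in K451R and 57.0 to 42.1 CPM in K450RK451R. The K450RK451R line had the highest PSME4 level with Veh, and the Dox values of all lines lay within or below the Veh range. The log2 fold change of PSME4 was -0.17 (SE 0.085).

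Of the catalytic subunits, PSMB5 was higher with Dox in all 4 lines. It went from 93.3 to 113 in WT, 102 to 109 in K450R, 99.8 to 107 in K451R and 105 to 109 CPM in K450RK451R (log2 fold change 0.13, SE 0.063, edgeR adjusted p = 0.338). Every Dox sample was above every Veh sample, by most in WT. PSMB6 went from 105 to 107 in WT, 109 to 108 in K450R, 117 to 99.6 in K451R and 104 to 109 CPM in K450RK451R. PSMB7 went from 93.3 to 95.1 CPM, from 97.4 to 99.9 CPM, from 93.1 to 91.6 CPM and from 83.6 to 90.5 CPM in the same order of lines. For PSMB6 and PSMB7 the lines did not share a direction, and the log2 fold changes were -0.038 (SE 0.064) and 0.039 (SE 0.063).

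The 19S base held 2 more members with an unadjusted p under 0.05 outside PSMC1. PSMD1 went from 97.7 to 82.0 in WT, 95.8 to 86.5 in K450R, 92.3 to 84.1 in K451R and 85.9 to 83.8 CPM in K450RK451R (log2 fold change -0.14, SE 0.065, edgeR adjusted p = 0.299). The PSMD1 groups overlapped at the K450R Dox and K450RK451R Veh values. PSMC6, an ATPase, went from 26.8 to 29.4 in WT, 29.6 to 26.8 in K450R, 33.3 to 23.8 in K451R and 27.5 to 21.2 CPM in K450RK451R (log2 fold change -0.22, SE 0.10, edgeR adjusted p = 0.337). It was lower in the 3 mutant lines and higher in WT. The direction in WT is uncertain, because a processed pseudogene copy of PSMC6 went there from 20.5 to 16.5 CPM. With the reads of this copy added, the log2 fold change of PSMC6 over the lines was -0.23 (SE 0.080, edgeR adjusted p = 0.135). PSMC1, lower or equal in counts in every line, had a log2 fold change of -0.86 (SE 0.41, edgeR adjusted p = 0.327) from the counts given above, and of 0.029 (SE 0.11, edgeR adjusted p = 0.942) with the pseudogene reads added. PSMD12, which had the smallest p after silencing, went from 17.5 to 16.8 in WT, 20.4 to 19.9 in K450R, 19.8 to 21.7 in K451R and 20.0 to 23.7 CPM in K450RK451R, with overlap (log2 fold change 0.082, SE 0.11).

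The genes that marked the ends of their groups after silencing were followed through induction as well. PSMC5 was lower in every line, from 53.0 to 48.3 in WT, 60.3 to 54.4 in K450R, 49.5 to 48.2 in K451R and 56.6 to 49.3 CPM in K450RK451R (log2 fold change -0.13, SE 0.073), with overlap between groups. PSMD7 went from 87.4 to 90.7 in WT, 91.75 to 82.35 in K450R, 99.2 to 81.5 in K451R and 95.55 to 88.15 CPM in K450RK451R (log2 fold change -0.12, SE 0.067). PSMD7 was thus higher in WT and lower in the mutant lines. The members with this split were not counted, and its share over all genes was not determined. PSMG4 had the highest estimate of all members with Dox, 0.21 (SE 0.17), from 7.93 to 7.55 in WT, 7.65 to 9.28 in K450R, 6.69 to 9.20 in K451R and 7.41 to 8.44 CPM in K450RK451R. PSMG4 split the other way, lower in WT and higher in the mutant lines. Its Dox values overlapped the Veh values through the WT line. The remaining estimates of this kind were -0.032 for PSMA7, -0.086 for PSMA1, -0.033 for both PSMB1 and PSMB3, -0.066 for PSMD4, -0.31 for PSMD9, -0.0078 for PSMD5 and 0.030 for PSMG1, and none passed the edgeR threshold. By group, the median log2 fold change ran from -0.13 in the activators and inhibitor to 0.059 in the 20S chaperones, the reverse order of these groups after silencing. These groups held 5 and 4 genes. By line, in the order WT, K450R, K451R and K450RK451R, the first had medians of -0.10, 0.041, -0.14 and -0.27. The second had medians of 0.0098, 0.22, 0.018 and 0.061. Neither list was tested as a set.

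**Figure D5:**
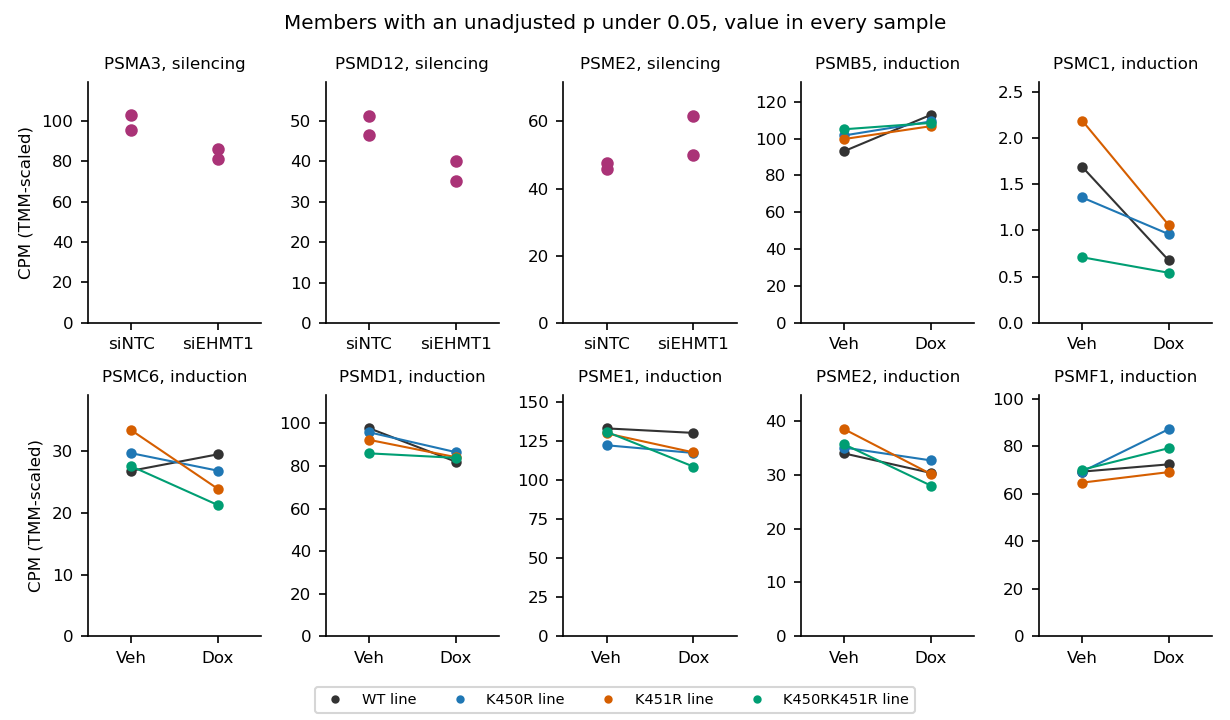
TMM-scaled CPM in every sample, from an axis starting at 0, of the members with an unadjusted p under 0.05 after silencing (3 panels) or induction (7 panels, with Veh and Dox of 1 line joined). PSME2 appears in both sets, above the controls in siEHMT1 and below the Veh samples with Dox.

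Within a single line each condition was 1 sample, so the following are ratios with counting intervals and no test. The intervals cover counting error only. The median log2 ratio of Dox over Veh across the 43 members was -0.00080 in WT, -0.059 in K450R, -0.070 in K451R and -0.036 in K450RK451R. Past 1.2-fold, WT had 3 members higher (15.3% of all genes) and 3 lower (17.6%), and K450R likewise 3 higher (20.1%) and 3 lower (17.4%). K451R had 2 higher (19.6%) and 6 lower (16.9%), and K450RK451R 1 higher (22.2%) and 5 lower (17.9%). In each line and in both directions, the members' share past this fold was below that of all genes. The shares were not matched for level, and ratios of genes with few reads vary more by counting alone. The 95% counting interval excluded no change for 16.3% of members in WT (22.8% of all genes), 27.9% in K450R (26%), 37.2% in K451R (27.3%) and 27.9% in K450RK451R (34.7%).

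The members with the largest ratios differed from line to line. PSMA6, an alpha subunit, went from 23.0 to 31.0 CPM in WT (log2 ratio 0.43, 95% interval 0.19 to 0.68), from 26.8 to 19.2 CPM in K450R (-0.48, -0.77 to -0.19), from 27.5 to 16.4 CPM in K451R (-0.75, -1.03 to -0.47) and from 18.2 to 20.1 CPM in K450RK451R (0.15, -0.13 to 0.43). Its Veh and Dox values thus crossed between lines, and 26.9% of its words had copies elsewhere. PSMD9 went from 13.0 to 8.34 CPM in WT (log2 ratio -0.64, -1.06 to -0.23) and from 10.2 to 7.47 CPM in K450R (-0.46, -0.94 to 0.021), with 0.0060 in K451R and -0.21 in K450RK451R. PSMA2, an alpha subunit, had a log2 ratio of 0.53 in K451R (0.036 to 1.05), from 6.08 to 8.79 CPM, and of -0.37 in WT, from 7.005 to 5.41 CPM. The lines did not share a direction for PSMA6, PSMA2 or PSMD9. PSMC1 had the largest ratio in WT (log2 -1.32, -2.93 to 0.049), in K450R (-0.50, -1.95 to 0.91) and in K451R (-1.05, -2.20 to 0.062), on the few reads given above, and each interval included no change. In K450RK451R, PSME4 had the largest ratio (log2 -0.44, -0.61 to -0.26), and PSMC6 stood at -0.37 (-0.62 to -0.13).

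Genes around the proteasome were examined as further lists. Of the 12 listed subunits and partners outside the members, 0 were called after silencing or after induction by edgeR, with 1 at an unadjusted p under 0.05 in each comparison. POMP, the maturation factor of the 20S core, stood at 47.5 and 64.8 CPM in siNTC and at 51.04 and 52.2 CPM in siEHMT1. The immunoproteasome subunits replace the catalytic ones after interferon and were low. Across all 12 libraries, PSMB8 lay between 0.21 and 1.13 CPM, PSMB9 between 0.34 and 1.58 CPM and PSMB10 between 1.04 and 2.95 CPM. PSMB8 passed the filter on low counts in neither comparison. The NRF1 pathway list held 12 genes, of which 0 were called after silencing and 1 was lower after induction. NFE2L1 itself stood at 247 and 241.5 CPM in siNTC and at 243 and 204 CPM in siEHMT1 (log2 fold change -0.13, edgeR adjusted p = 0.698). With Dox it went from 425 to 430.0 in WT, 405 to 353 in K450R, 382 to 361 in K451R and 366 to 343 CPM in K450RK451R (log2 fold change -0.088, edgeR adjusted p = 0.479). NFE2L1 was lower in the 3 mutant lines and not in WT. NFE2L2 (NRF2), a relative that answers oxidative stress, had log2 fold changes of 0.099 after silencing and -0.0032 after induction. Of 9 NRF2 targets outside the proteasome and 8 subunits of the chaperonin TRiC, edgeR called 0 in either comparison, with 1 of each list at an unadjusted p under 0.05 after silencing, and 3 and 0 after induction.

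The gene of the NRF1 pathway list that was called after induction was MAFF. MAFF, a small MAF protein that pairs with NFE2L1, went from 71.9 to 71.2 in WT, 57.8 to 50.5 in K450R, 47.5 to 32.1 in K451R and 47.4 to 29.8 CPM in K450RK451R (log2 fold change -0.34, SE 0.090, edgeR adjusted p = 0.0411). In Dox against Veh over the 4 lines, MAFF lost its call without the K450R line (edgeR adjusted p = 0.1104), without K451R (0.246) and without K450RK451R (0.240), and by DESeq2 (0.130) and limma-voom (0.0703). MAFF lay at 0.72 to 1.38 CPM in the siRNA samples.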

How the data were processed

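RNA from LNCaP cells was sequenced, and the authors deposited raw gene counts in a table of 4 siRNA columns and a table of 16 stable-line columns. Per the labels, reads were checked with FastQC 0.11.9, aligned with STAR 2.7.2 and counted with featureCounts 1.6.4 (hg19/GRCh37). Libraries were made with a stranded total RNA kit. The strand setting used for counting and the annotation release are not given in the sources used here. If counting did not use strand, reads of genes that overlap on opposite strands were not separated.

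Counts were tested with edgeR 4.0.16 in R 4.3.3 (TMM, filterByExpr, quasi-likelihood test, Benjamini-Hochberg over all genes, threshold 0.05), silencing as 2 against 2 samples and induction over 8 summed libraries with line as a block. DESeq2 1.42.0, limma-voom (limma 3.58.1), other filters and scalings, left-out samples and a replicate block were alternatives. Adding reads of pseudogene copies was chosen after seeing the data. Intervals of ratios were exact (Clopper-Pearson). Python 3.11.15, numpy 2.4.6 and matplotlib 3.10.9 searched sequences and drew plots. Of 57773 gene IDs, 55538 were found in the GRCh37 annotation used for lengths and positions, GENCODE lifted to that build. The tests were first tried on simulated data.

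The members and gene lists were chosen with earlier results of these data known. Named with values were called genes, the catalytic subunits, the highest and lowest estimate of each group after silencing, the 3 largest ratios in each line, the extremes of level per length, and NFE2L1, NFE2L2, POMP and PSMB8 to PSMB10. Results of some items are not reported here. PSMA3, PSME1 and PSMD8 and the members lower or higher in all lines were named after their values were seen.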

Additional observations from a re-analysis of the deposited data

Results flagged for a closer look

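PSMD8, a subunit of the 19S lid, stood apart in the WT line. Its log2 ratio of Dox over Veh was 0.056 in WT, from 413 to 429 CPM, against -0.12 in K450R, -0.11 in K451R and -0.12 in K450RK451R. The gap between WT and the nearest mutant line was over the 95% critical value of Dixon's test for 4 samples. Of 47 sets of 4 values tested in this way, 1 exceeded the critical value, and chance passes about 5% of them. Over the 4 lines, PSMD8 had a log2 fold change of -0.075 (SE 0.053).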

How the results depend on the processing

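No member passed an adjusted p of 0.05 under any alternative that was run, and the members' median log2 fold change stayed between -0.023 and 0.036 after silencing and between -0.047 and -0.016 after induction. The smallest adjusted p of a member ranged from 0.0669 (PSMA1, without siNTC replicate 1) to 1.00 (PSMD12, DESeq2) after silencing, and from 0.0768 (PSME2, copies' reads added) to 0.462 (PSME2, DESeq2) after induction. Estimates of named genes that were not called changed sign under some settings, in 20 cases after silencing and 19 after induction, among them PSMA1 after silencing (0.048 without siNTC replicate 2) and PSMC1 after induction (0.029 with copies' reads added).

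With the replicate number as a block in the siRNA samples, 0 members and 127 genes were called, against 19 genes without it, and the members' median was 0.011. Deviations of same-numbered samples had a Pearson r of -0.00062 and a Spearman rho of 0.029 across genes. With 2 samples a group, these values cannot decide whether the numbers pair the samples. The stable-line columns were summed, so no block by column number was possible there.

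Counts over all genes moved more. After silencing they ran from 38 to 111 with 1 sample left out and were 12 without a filter, against 19. After induction they ran from 114 (without K451R) to 501 (without WT) with 1 line left out, and were 137 by DESeq2 and 4 without the line block, against 296.

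In K450R, leaving out 1 column at a time gave 4 to 5 members higher past 1.2-fold and 5 to 6 lower (3 and 3 with both columns), and a median of -0.047 to -0.027. In K450RK451R it gave 1 to 3 higher and 3 to 5 lower, with a median of -0.042 to 0.034, and the median was -0.077 after a loess correction on length and GC content. The cause of these shifts was not tested. PSMC1 held 4 to 20 counts a library, and its interval was wider than 2-fold in both comparisons.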
